A study of Gallus gallus with 16 samples.

Results

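Cilium, axoneme and centrosome genes were followed in the embryonic chicken spinal cord region across 2 days of incubation, with and without nicotine. They were chosen by symbol alone: the families CFAP, TEKT, DNAH, DNAI, DNAAF, DNAL, numbered IFT, BBS, RSPH, SPAG, TCTN, numbered CEP and TTC followed by a number. The rule found 91 genes among 21357 identifiers in the authors' deposited tables, of which 9225 carry a symbol. By known role and family name, 33 were grouped as axonemal. They are 8 of the dynein arms and their docking and 25 of the spokes, central pair, links and inner proteins. All CFAP genes were placed among the 25, though CFAP36 and CFAP97 have no established place in those structures. Another 15 serve ciliary transport, 12 of intraflagellar transport (IFT) and 3 of the BBSome. The remainder are 2 dynein arm assembly factors, 2 transition zone genes, 26 other centrosomal CEP genes and 13 other TTC genes, whose shared name marks a protein repeat and not a ciliary role.

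A cilium is a microtubule projection that grows from a centriole. In motile cilia, rows of dynein arms slide the microtubule doublets, and radial spokes, a central pair and nexin links shape the beat. IFT trains carry cargo along both motile and primary cilia, the BBSome sorts membrane proteins, and the transition zone gates the base. In the developing spinal cord, progenitors bear primary cilia that are needed for the response to Sonic hedgehog. The roles given below are known chiefly from mouse, human and the green alga Chlamydomonas.

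Wild-type domestic chicken eggs received a single agent before incubation: nicotine at 30 ng/ml, given as the hydrogen bitartrate salt, or sodium bitartrate as vehicle, both in chicken Ringer's solution. Tissue containing the spinal cord was cut from between the mid-neck and the rear edge of the forelimb on day 5 or day 7, and 4 embryos per group gave 16 libraries of total RNA. The 4 groups were vehicle day 5, nicotine day 5, vehicle day 7 and nicotine day 7. Embryos were described as biological replicates, and no litter or sequencing batch was given. In such bulk tissue, fewer cells of a type and less RNA per cell cannot be told apart.

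Library totals ran from 21801247 to 29002315 counts. The authors' deposited tables give log2 fold changes for all 91 genes in 5 comparisons, but only 16 of the genes have a row in the deposited count matrix: 14 axonemal genes, CEP57L1 and TTC34, and no transport gene. Of these 16, 13 passed the filter on low counts, 12 of them axonemal. Transport genes are therefore described from the authors' deposited tables alone, without values by library. One library in each group (vehicle day 5 replicate 2, nicotine day 5 replicate 4, vehicle day 7 replicate 2 and nicotine day 7 replicate 2) lacked 57 loci that the other libraries expressed. A DESeq2 fit with a term for these 4 libraries came within 0.000746 log2 units of the authors' deposited tables for all 13 tested genes, whereas without the term the largest gap was 0.495. Of 14 spinal cord neural markers in the tables, 1 has a row in the matrix, CHAT, the acetylcholine-synthesising enzyme of motor neurons, whose level was 2.46 to 3.30 CPM (counts scaled by normalised library size) in vehicle and 0.757 to 2.01 CPM in nicotine libraries at day 5. At day 7 CHAT ran from 0.781 to 2.22 CPM in vehicle and from 1.49 to 2.73 CPM in nicotine libraries. CHAT does not stand for the list. Between nicotine and vehicle at day 5 it stood at -0.97 in the authors' deposited table, without an adjusted p. Of the 14 markers 10 were positive and 4 negative there, with a median of 0.46.

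The first comparison asked how these genes differ between day 5 and day 7 in vehicle embryos. Of the IFT genes 5 of 12 fell, and of the centrosomal CEP genes 15 of 26. Among the 33 axonemal genes 4 fell and 2, the dynein heavy chains DNAH1 and DNAH9, rose. In the authors' deposited table, 32 of 91 genes passed an adjusted p of 0.05, 3 higher and 29 lower, against 36.8% of all identifiers (18.1% higher and 18.7% lower) and 47.7% of those with a symbol (20.2% higher and 27.4% lower). The members' share was 35.2%, with 31.9% lower and 3.3% higher. All members carry a symbol, and against identifiers with a symbol their total was below and their lower share somewhat above. Their total was near that of all identifiers, their lower share above it, and their higher share below both backgrounds. Shares lower were 12.1% for axonemal, 40% for transport and 57.7% for centrosomal CEP genes, and 6.06% of axonemal genes were higher. Axonemal genes in the matrix mostly had low counts, which limits how many can pass in either time comparison. The part of low counts in the difference between classes was not tested. Axonemal genes had a median of -0.04, transport genes of -0.30 and centrosomal CEP genes of -0.40 on the log2 scale of the authors' deposited table, against 0.04 for all identifiers.

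Among the 8 dynein arm genes, 2 were higher and none lower. DNAH1, an inner arm heavy chain, rose by 0.82 log2 units (adjusted p = 0.0024) and DNAH9, an outer arm heavy chain, by 1.48 (adjusted p = 0.00393) by the authors' deposited table. TTC25, of the outer arm docking complex, stood at 0.76 in the same authors' deposited table without passing (adjusted p = 0.0654). DNAH1 measured 6.76, 9.04, 4.54 and 3.90 CPM in the vehicle day 5 libraries and 12.1, 12.6, 9.06 and 7.60 CPM at day 7. The day 7 libraries lay mostly above those of day 5, with an overlap between the highest day 5 library and the lowest day 7 library. By edgeR's quasi-likelihood test DNAH1 was 0.77 log2 units higher (SE 0.29, Benjamini-Hochberg adjusted p = 0.047), beside a share of 37.2% of all loci called; of the 13 genes tested, no other passed. This call was lost in edgeR when vehicle day 5 replicate 1, 3 or 4 or vehicle day 7 replicate 1, 2 or 3 was left out, with adjusted p up to 0.126.

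DNAH9 measured 0.493, 4.09, 1.51 and 1.34 CPM at day 5 and 5.29, 4.76, 3.22 and 4.55 CPM at day 7 in vehicle embryos. A single day 5 library, replicate 2, reached into the day 7 range. The edgeR difference was 1.25 (SE 0.51, adjusted p = 0.0666); DESeq2 called it in all libraries (adjusted p = 0.0363). Leaving out single libraries gave edgeR differences from 0.94, without vehicle day 5 replicate 1, to 1.98, without vehicle day 5 replicate 2; the latter was the 1 of 8 such fits that called it (adjusted p = 0.00441), and the others reached an adjusted p of 0.145. Over the other settings the adjusted p ran from 0.00363 to 0.0887.

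Of the 25 genes grouped as spoke, central pair, link and inner proteins, 4 fell and none rose, CFAP36 and CFAP97 among those that fell. They were the only axonemal genes to fall. The axonemal share lower, 12.1%, was below the 18.7% of all identifiers and the 27.4% of those with a symbol. The part of low counts in this was not tested. RSPH14, a radial spoke head protein, fell by 2.04 log2 units (adjusted p = 3.78e-06) by the authors' deposited table. SPAG6, a central pair protein, fell by 0.70 (adjusted p = 0.0444), CFAP97 fell by 0.38 (adjusted p = 6.8e-05) and CFAP36 fell by 0.36 (adjusted p = 3.7e-05) by the authors' deposited table. DNAAF1, which helps assemble dynein arms in the cytoplasm, fell by 0.56 (adjusted p = 0.00121) there, while the other assembly factor, SPAG1, stood at 0.12 (adjusted p = 0.821) by the authors' deposited table.

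Transport genes moved one way where they moved: 6 of 15 fell and none rose. IFT22 fell by 0.71 (adjusted p = 1.44e-07), IFT74 by 0.68 (adjusted p = 1.79e-06), IFT20 by 0.56 (adjusted p = 0.000154) and TTC26, also called IFT56, by 0.30 (adjusted p = 0.00853) by the authors' deposited table. These 4 belong to the IFT-B complex, which drives movement towards the tip. IFT122, of the IFT-A complex for return transport, fell by 0.48 (adjusted p = 0.000109), whereas its IFT-A partners IFT140 at 0.22 (adjusted p = 0.389) and TTC21B at -0.37 (adjusted p = 0.148) did not pass in the authors' deposited table. BBS7, a BBSome subunit, fell by 0.29 (adjusted p = 0.0389), beside TTC8 at 0.30 (adjusted p = 0.0592) and BBS4 at 0.06 (adjusted p = 0.78) by the authors' deposited table. Neither transition zone gene passed in the authors' deposited table, with CEP290 at -0.24 and TCTN1 at -0.05.

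Centrosomal CEP genes fell in 15 of 26 cases with none higher. CEP112 fell by 0.78 (adjusted p = 5.07e-08), CEP55, which acts in the last step of cell division, by 0.71 (adjusted p = 2.64e-06) and CEP89, of the distal appendages that dock centrioles to the membrane, by 0.70 (adjusted p = 3.69e-07) by the authors' deposited table. CEP128 fell by 0.68, CEP192, a pericentriolar scaffold for mitosis, by 0.61, and CEP83, another distal appendage protein, by 0.60 in the authors' deposited table. Proliferation genes moved with them: all 18 listed (such as CCNA2, TPX2 and AURKA) fell in vehicle embryos, their median being -0.82 log2 units in the authors' deposited table, and their part in the CEP result was not tested. Of the other TTC genes, TTC28 rose by 0.80 (adjusted p = 5.96e-10) while TTC13, TTC1 and TTC37 fell by 0.65, 0.60 and 0.46 in the authors' deposited table.

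**Figure D1:**
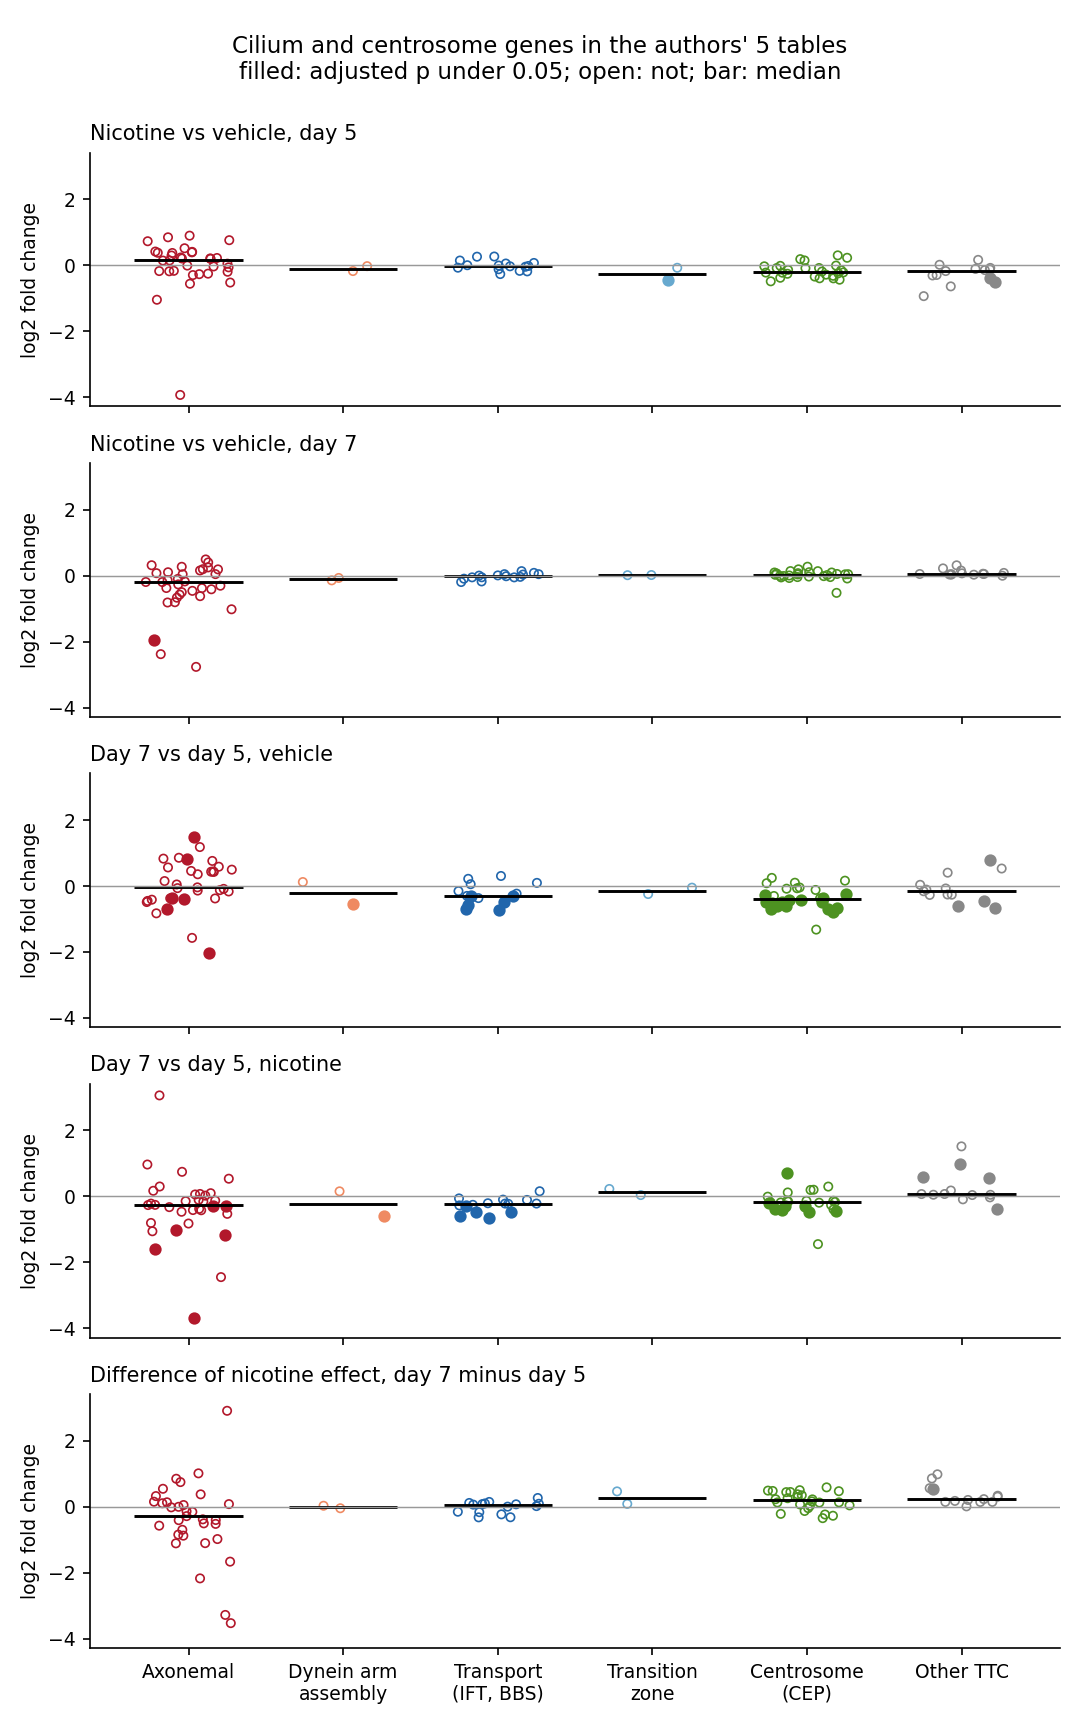
Log2 fold change (vertical axis) of each gene in the authors' 5 deposited tables, by class along the horizontal axis; filled points have an adjusted p under 0.05 and bars are class medians. Transport genes lie close to 0 in both nicotine comparisons and mostly below 0 in both time comparisons, while axonemal genes spread widely; DNAH8 at -3.93 on day 5 rests on 0 counts in all nicotine libraries and is not a measured fold.

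The same interval was then compared in nicotine embryos. Of the transport genes 5 of 15 fell, all of them IFT genes, and of the axonemal genes 6 of 33 fell, with no dynein arm gene among them. In the authors' deposited table, 24 of the 90 genes with an adjusted p passed, 4 higher and 20 lower, against 31.1% of all identifiers (15.9% higher and 15.3% lower) and 40.7% of those with a symbol (20.2% higher and 20.6% lower). The members' share was 26.7%, below both backgrounds, with 4.44% higher and 22.2% lower. The lower share was near the 20.6% of identifiers with a symbol and above the 15.3% of all identifiers. Shares lower were 18.75% for axonemal, 33.3% for transport and 26.9% for centrosomal CEP genes. Medians there, on the log2 scale of the authors' deposited table, were -0.26 for axonemal, -0.22 for transport and -0.18 for centrosomal CEP genes, against 0.01 for all identifiers.

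Of the 33 axonemal genes, 6 fell and none rose. That was 18.75% of the 32 with an adjusted p. The share lay between the 15.3% lower among all identifiers and the 20.6% among those with a symbol. TEKT2, a tektin filament protein inside the doublets, fell by 3.69 (adjusted p = 0.0199) and has no row in the matrix, so the counts behind that value were not analysed here; the value comes from the authors' deposited table. CFAP52, an inner protein of the doublet microtubules, fell by 1.61 (adjusted p = 0.00882), CFAP99 by 1.16 (adjusted p = 0.0361) and RSPH14 by 1.02 (adjusted p = 0.0343) by the authors' deposited table. CFAP99 measured 2.83, 5.81, 1.94 and 3.44 CPM at day 5 and 1.38, 2.22, 0.726 and 1.99 CPM at day 7 in nicotine libraries. These groups overlapped, and the edgeR difference of -1.15 (SE 0.45, adjusted p = 0.0672) did not pass; without nicotine day 5 replicate 3 edgeR called it, with CFAP221. CFAP36 and CFAP97, without an established place in the structures of their class, each fell by 0.30 (adjusted p = 0.000811 and 0.0032) by the authors' deposited table. Of the dynein arm genes, DNAH9 stood at 0.97 (adjusted p = 0.0883), TTC25 at 0.75 (adjusted p = 0.0805) and DNAH1 at -0.16 (adjusted p = 0.688) by the authors' deposited table.

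IFT22 fell by 0.65 (adjusted p = 3.63e-06), IFT74 by 0.58 (adjusted p = 9.26e-05), IFT20 by 0.49 (adjusted p = 0.00172), IFT46 by 0.46 (adjusted p = 7.86e-05) and TTC26 by 0.29 (adjusted p = 0.0129) by the authors' deposited table. All 5 are IFT-B genes, and no BBSome gene passed, the nearest being BBS7 at -0.27 (adjusted p = 0.0699) by the authors' deposited table. Centrosomal genes gave 1 higher and 7 lower: CEP170, of the subdistal appendages, rose by 0.70 (adjusted p = 6.13e-07), and CEP83 fell by 0.47, CEP55 by 0.45 and CEP89 by 0.40 in the authors' deposited table. TTC28 rose by 0.98 (adjusted p = 4.98e-14), TTC39B by 0.59 and TTC9 by 0.56, and TTC1 fell by 0.39 in the authors' deposited table. Here 17 of the 18 proliferation genes fell (median -0.62) according to the authors' deposited table.

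The vehicle and nicotine time comparisons share no library. Of 90 genes with an adjusted p in both of the authors' deposited tables, 60 had the same sign (66.7%, against 73.7% of all identifiers). A group of 16 genes passed in both of the authors' deposited tables, 1 higher and 15 lower, which is 50% of the vehicle calls and 66.7% of the nicotine calls; over all identifiers these shares were 57.5% and 70.9%. Transport genes had the same sign in 12 of 15 cases (80%) and axonemal genes in 20 of 32 (62.5%) in the authors' deposited tables.

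**Figure D2:**
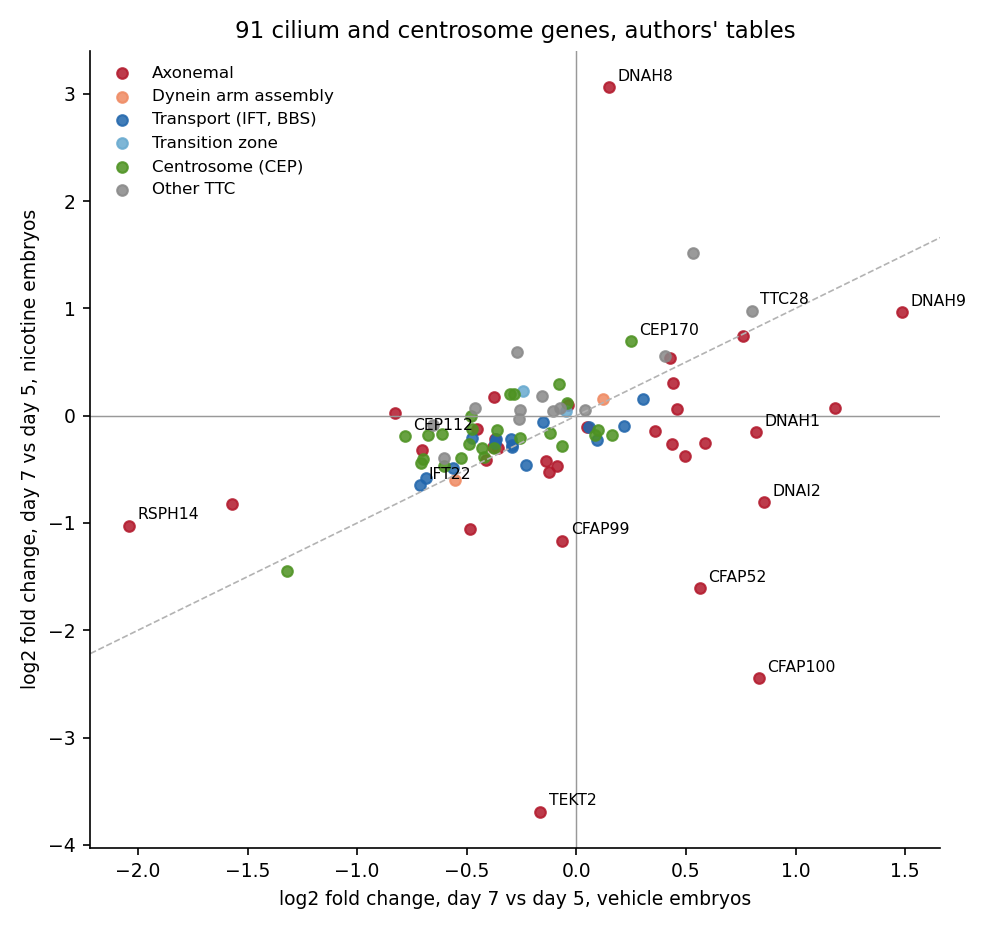
Log2 fold change from day 5 to day 7 in vehicle embryos (horizontal axis) against nicotine embryos (vertical axis) for the 91 genes in the authors' deposited tables, coloured by class, with the dashed line at equal values. Transport genes lie near the line, and CFAP52 (0.56 and -1.61) and DNAI2 (0.86 and -0.80) lie on opposite sides of 0, though edgeR called the difference for neither; DNAH8 rests on 0 counts in all nicotine day 5 libraries.

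Nicotine was next set against vehicle at day 5. No IFT or BBSome gene passed, nor any of the 11 axonemal genes, of 33, with an adjusted p; the 3 that did were lower and of other classes. They were 3 of the 66 genes that the authors' deposited table gives an adjusted p, none of them higher, against 2.72% of all identifiers (0.761% higher and 1.96% lower) and 2.95% of those with a symbol. CEP290, which builds the transition zone, fell by 0.45 (adjusted p = 0.0312), TTC37, a subunit of the SKI complex for RNA decay, by 0.38 (adjusted p = 0.0308) and TTC13 by 0.52 (adjusted p = 0.0456) by the authors' deposited table. When the Benjamini-Hochberg adjustment was recomputed over all p-values in the authors' deposited table, TTC13 no longer passed (adjusted p = 0.0627).

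Median log2 fold changes at day 5 were 0.14 for axonemal genes, -0.02 for transport genes and -0.21 for centrosomal CEP genes in the table the authors deposited, against -0.00 for all identifiers. Of the 26 CEP genes, 22 had a negative sign and none passed, with CEP85L at -0.35 (adjusted p = 0.067) and CEP131 at 0.30 (adjusted p = 0.0688) by the authors' deposited table. Proliferation genes were negative in 14 of 18 cases (median -0.17) with none called, and the 14 spinal cord neural markers had a median of 0.46, with ISL1 (0.65, adjusted p = 0.0338) and NKX6-1 (0.51, adjusted p = 0.0348) called higher, in the authors' deposited table. Their part in the CEP values was not tested. Among axonemal genes DNAH1 stood at 0.51 (adjusted p = 0.185) and CFAP70 at 0.19 (adjusted p = 0.203), and among IFT genes IFT46 stood at 0.26 (adjusted p = 0.127), by the authors' deposited table. None of the 13 genes tested in the matrix passed by edgeR (lowest adjusted p 0.41), which called 0% of all loci. None had an unadjusted p under 0.05 by edgeR (14.9% of all loci did). DESeq2 called 0, but gave an adjusted p to only 4 of the genes with a row in the matrix. DNAH8, an outer arm heavy chain chiefly of sperm, had 2, 1, 4 and 6 counts in the vehicle libraries and 0 in each nicotine library, too few to pass the filter.

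At day 7, 1 gene passed between nicotine and vehicle. CFAP52 fell by 1.96 log2 units (adjusted p = 0.0357) by the authors' deposited table, and was the 1 gene of 91 called, against 0.395% of all identifiers (0.221% higher and 0.174% lower) and 0.195% of those with a symbol. It measured 2.97, 2.46, 1.17 and 1.55 CPM in the vehicle libraries and 0.874, 0.327, 0.272 and 0.551 CPM in the nicotine libraries. Every nicotine library lay below every vehicle library, on 6 to 24 counts against 35 to 74. Of the 13 genes tested it was the only one whose groups did not overlap in that direction, as was true of 2.42% of all loci.

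In the edgeR fit CFAP52 differed by -1.99 log2 units (SE 0.48, unadjusted p = 0.00083), but its adjusted p was 0.905 and edgeR called 0% of 18394 loci. It was the 1 gene of 13 with an unadjusted p under 0.05, as had 4.66% of all loci, and DESeq2 called 0 of them. DESeq2 gave CFAP52 an adjusted p of 0.0646, and DESeq2 with a term for the 4 libraries that lack the 57 loci gave -1.96 (adjusted p = 0.0284). Over the other settings tried, the adjusted p ran from 0.0284 to 0.99, and leaving out each library gave edgeR differences of -2.40 to -1.75. An exact two-sided permutation test of mean CPM gave p = 0.0286, the smallest that 4 against 4 libraries allow, and 0.114 after adjustment over 4 such tests. The gene was singled out with its values already known, so this p describes the separation of the libraries.

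The nicotine day 7 level was low against day 5, in the same nicotine day 7 libraries. This comparison is therefore not independent of that between nicotine and vehicle at day 7. CFAP52 measured 1.97, 1.97, 0.757 and 1.74 CPM in the nicotine day 5 libraries and 1.43, 2.50, 0.78 and 1.02 CPM in the vehicle day 5 libraries. Both day 5 groups overlapped with each other and with vehicle day 7. Between nicotine day 5 and day 7, edgeR gave -1.66 (SE 0.47, adjusted p = 0.0162), 1 of 13 genes called beside 29.6% of all loci; without nicotine day 7 replicate 2 or 3 the adjusted p was 0.0514 or 0.0542. Nicotine day 5 replicate 3 overlapped with the day 7 range, and the exact permutation p was 0.0571. CEP57L1, a centrosomal gene, was the 1 gene of 13 whose nicotine groups did not overlap over time, at 0.479 to 0.881 CPM on day 5 and 0 to 0.466 CPM on day 7, as was true of 17.6% of all loci; its edgeR difference was -1.42 (SE 0.69, adjusted p = 0.139). These CEP57L1 values rest on 11 to 25 counts on day 5 and 0 to 11 on day 7. The raw counts thus met at 11, and the groups parted only after scaling.

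**Figure D3:**
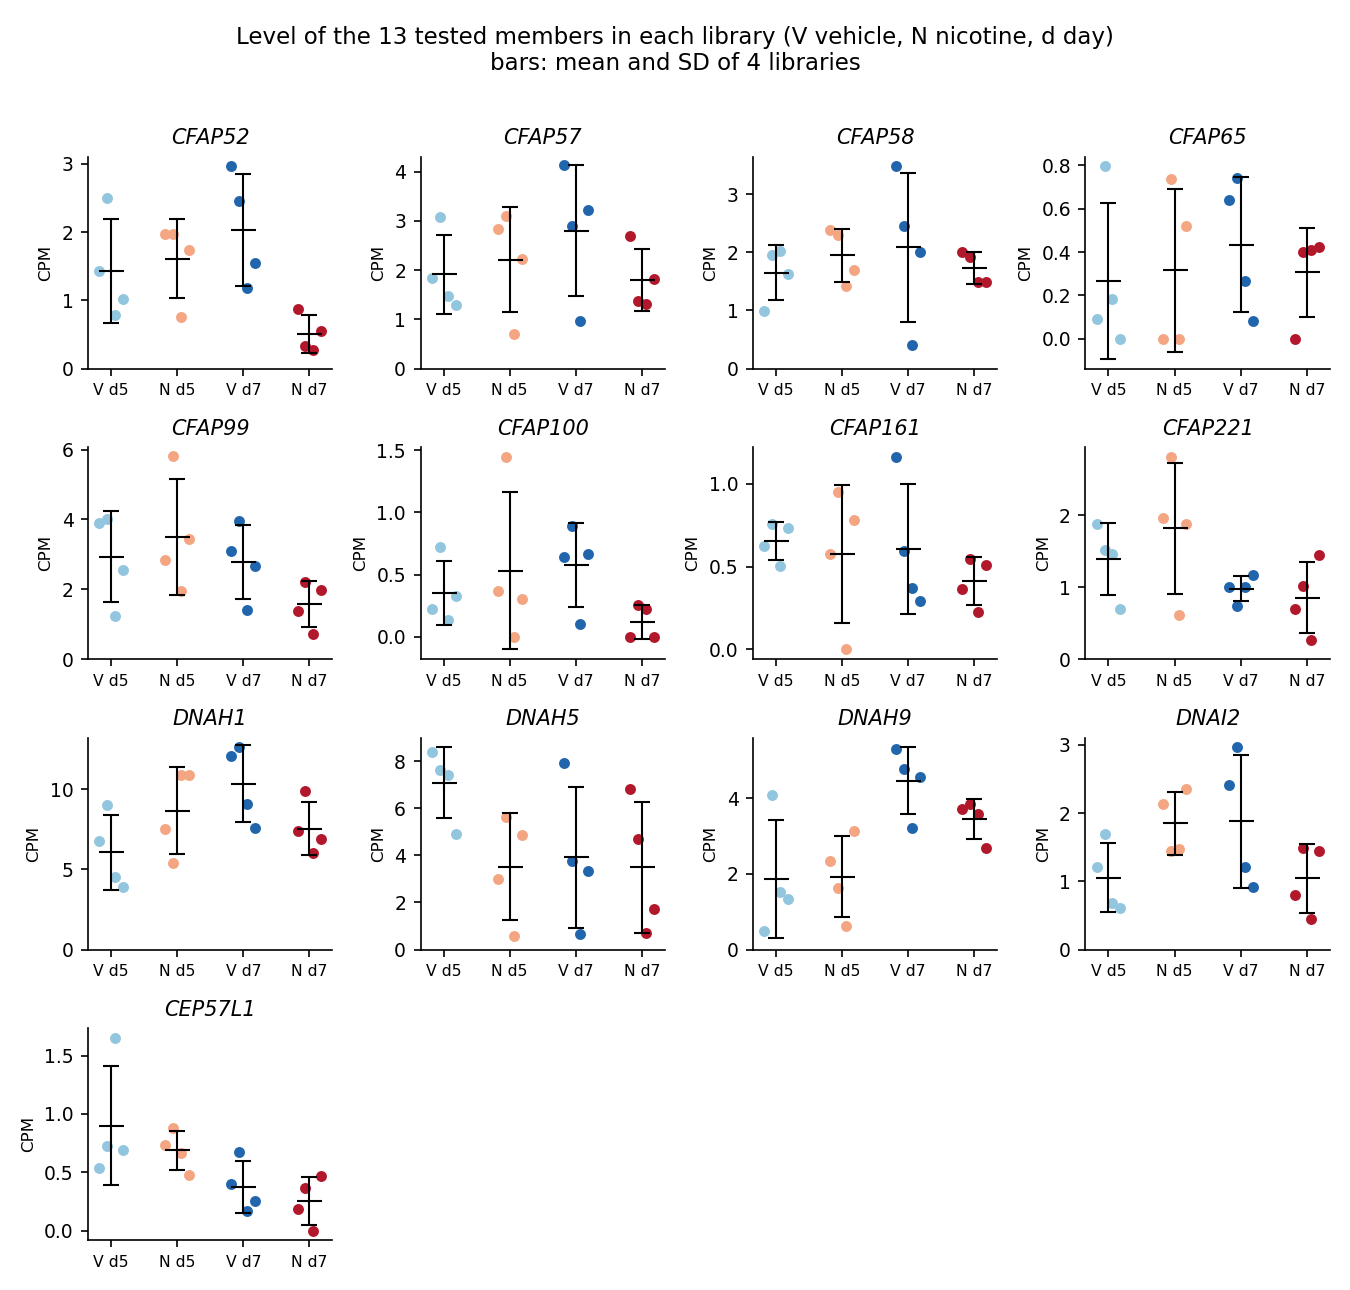
Level in CPM (vertical axis) in each library for the 13 tested genes, by group (V vehicle, N nicotine, d day); points are libraries and bars are the mean and SD of 4. CFAP52 in nicotine day 7 lies at 0.272 to 0.874 CPM, below all vehicle day 7 libraries, and the other genes overlap between these groups.

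The other axonemal genes at day 7 did not pass. TEKT2 stood at -2.77 (adjusted p = 0.867), CFAP100 at -2.38 (adjusted p = 0.927), DNAI2, an outer arm intermediate chain, at -0.81 (adjusted p = 0.938) and DNAH1 at -0.46 (adjusted p = 0.932) by the authors' deposited table. CFAP100 had 16, 24, 3 and 16 counts in the vehicle libraries and 0, 7, 5 and 0 in the nicotine libraries. Transport genes had a median of -0.02, and their lowest were TTC8 at -0.19 and IFT172 at -0.18, by the authors' deposited table. By the authors' deposited table the axonemal median was -0.20, with 21 of 33 genes negative, and that of centrosomal CEP genes was 0.03, against 0.01 for all identifiers.

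DNAI2 measured 2.41, 2.98, 1.21 and 0.919 CPM in vehicle and 0.801, 1.49, 0.453 and 1.44 CPM in nicotine libraries at day 7. The groups overlapped, and the edgeR difference was -0.84 (SE 0.45, unadjusted p = 0.0856). CFAP57, whose product is an axonemal protein of the inner arm region in the alga, measured 4.13, 2.90, 0.973 and 3.22 CPM in vehicle and 2.70, 1.38, 1.31 and 1.82 CPM in nicotine libraries, with the lowest of the 8 values in vehicle replicate 3. DNAH5, also an outer arm heavy chain, spanned 0.671 to 7.90 CPM in vehicle and 0.726 to 6.81 CPM in nicotine libraries. The spread within each group was wider than the gap between the group means of 3.92 and 3.49 CPM. CFAP58, CFAP161 and CFAP221 had edgeR differences of -0.27, -0.54 and -0.19, each with an SE larger than its size.

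The 12 axonemal genes that passed the count filter all had a negative edgeR log2 fold change at day 7, against 48.2% of all loci and 59.2% of loci under 10 CPM. Because the filter keeps genes by their level in some groups, this is a description of those 12 and not of all 33. The count was 10 without vehicle day 7 replicate 1 or nicotine day 7 replicate 3. At day 5, 2 of the 12 were negative (45.5% of all loci), a count that ran from 1 to 6 when single libraries were left out.

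The level of these 12 genes varied widely among libraries of 1 group. Expressed as the mean deviation of log2 CPM from each gene's mean over the 16 libraries, vehicle day 7 gave 0.90, 0.70, -0.53 and 0.13, and nicotine day 7 gave -0.38, 0.02, -0.79 and -0.27. These groups overlapped, since vehicle day 7 replicate 3 lay below 3 of the 4 nicotine libraries. Vehicle day 5 gave -0.08, 0.74, -0.26 and -0.40, and nicotine day 5 gave 0.15, 0.72, -1.14 and 0.49. Nicotine day 5 replicate 3 was the lowest of the 16, with 10 of the 12 genes below their own mean.

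**Figure D4:**
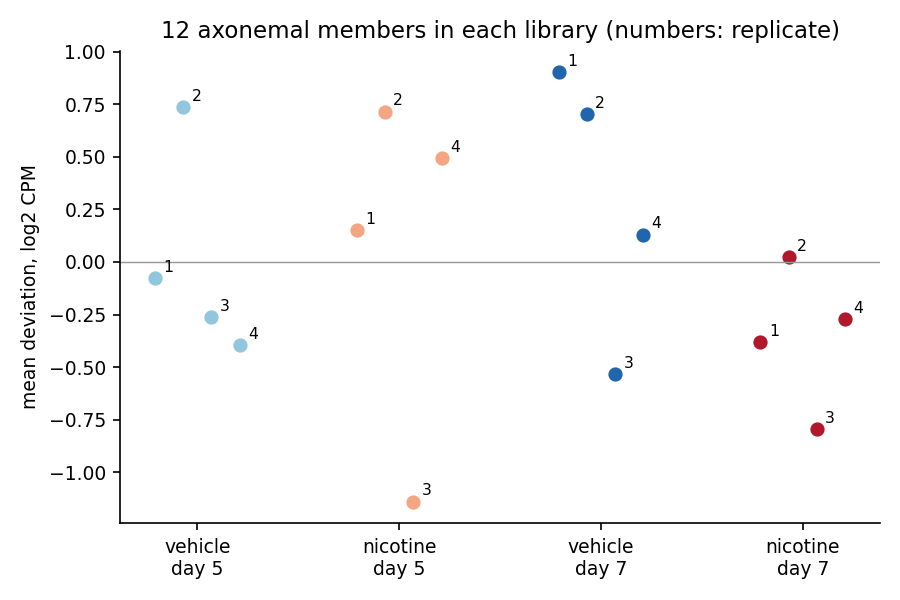
Mean deviation of log2 CPM over the 12 tested axonemal genes (vertical axis) in each library, by group; numbers are replicates. Vehicle day 7 spans -0.53 to 0.90 and nicotine day 7 spans -0.79 to 0.02, so the groups overlap.

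Surface epithelium markers were read beside CFAP52 at day 7. CDH1, an epithelial cadherin, fell by 0.61 (adjusted p = 0.032) by the authors' deposited table, and all 5 listed epidermis markers were negative there with a median of -0.61, CDH1 being the 1 that passed. The share called was 20%, against 0.395% of all identifiers and 0.195% of those with a symbol. ESRP1, an epithelial splicing regulator and the only marker of the list in the matrix, ran from 1.91 to 3.51 CPM in vehicle and from 0.806 to 2.07 CPM in nicotine libraries at day 7, and was at 0 in none. From day 5 to day 7 in nicotine embryos all 5 fell and passed (median -0.89) according to the authors' deposited table. The shares lower there were 15.3% of all identifiers and 20.6% of those with a symbol. This comparison uses the same nicotine day 7 libraries as that between nicotine and vehicle at day 7, so the results are not independent. In vehicle embryos all 5 were negative as well (median -0.50) in the authors' deposited table. Of these, 1 passed, EPCAM, an epithelial adhesion molecule, which fell by 0.83 by the authors' deposited table. That share of 20% was near the 18.7% lower among all identifiers and below the 27.4% among those with a symbol. No gene of the other tissue lists was called at day 7. Cartilage and mesenchyme markers were negative in 6 of 6 cases (median -0.23) and muscle markers positive in 5 of 6 (median 0.40). Blood, vessel and macrophage markers had a median of 0.09 and neural crest glia markers of -0.13 in the authors' deposited table. The part of any of these lists in the CFAP52 result was not tested.

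Whether the nicotine effect differed between days was the last comparison. TTC37 alone passed, at 0.53 (adjusted p = 0.0314), 1 of 69 genes that the authors' deposited table gives an adjusted p, against 2.25% of all identifiers (1.57% higher and 0.688% lower) and 2.35% of those with a symbol. Its nicotine difference was -0.38 at day 5 and 0.15 at day 7 in the authors' deposited tables. DNAH1 stood at -0.98 (adjusted p = 0.0879) and CEP112 at 0.59 (adjusted p = 0.0585) by the authors' deposited table. CFAP52 stood at -2.17 in the authors' deposited table, where it has no adjusted p, and edgeR gave -2.16 (SE 0.65, adjusted p = 0.258). None of the 13 genes tested passed by edgeR, where 3 had an unadjusted p under 0.05 (CFAP52, DNAH1 and DNAI2, against 13.7% of all loci). DESeq2 called 0, but gave an adjusted p to only 2 of the genes with a row in the matrix. The share of all loci called by edgeR was again 0%.

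Signs at day 5 and day 7, from libraries that do not overlap, agreed in 23 of 66 genes (34.8%, against 36.7% of all identifiers) in the authors' deposited tables. For centrosomal CEP genes the same sign was found in 5 of 25, and for IFT genes in 6 of 12, in the authors' deposited tables. The axonemal median of the difference was -0.28 in the authors' deposited table over all 33 genes but 0.00 over the 13 with an adjusted p; that of transport genes was 0.07.

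Over the 16 libraries, the loci with the log2 CPM pattern most like that of CFAP52 among 379 with a symbol and a mean of at least 1 CPM were MACC1 (Pearson r = 0.755), CFAP99 (r = 0.755), CFAP57 (r = 0.684), ATP8B1 (r = 0.684) and GMIP (r = 0.656). Their Spearman coefficients were 0.712, 0.815, 0.776, 0.688 and 0.629. After subtraction of the group means, r was 0.877 for CFAP57 and 0.682 for CFAP99, and 0.514 for MACC1. DNAI2 ranked 9 and DNAH9 ranked 147 of these 379. These values describe libraries that share depth and group, and no test was made of them.

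Related genes outside the naming rule were read from lists. Of 52 other motile cilia genes in the authors' deposited tables, none passed between nicotine and vehicle at day 5, where 16 have an adjusted p (lowest 0.0758), or at day 7 (lowest 0.73). Between days, 4 rose and 9 fell in vehicle embryos (25% called, below the 36.8% of all identifiers) and 10 of 51 fell in nicotine embryos (19.6%, below 31.1%) in the authors' deposited tables. Among those that fell in both were CETN2, a centriole component (-0.87 and -0.66), and DCDC2, a doublecortin family protein (-1.17 and -0.99). The TPPP3 microtubule-bundling gene rose by 1.10 and MORN5 by 1.65 in vehicle embryos in the authors' deposited table.

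RFX2, a transcription factor that switches on cilium genes in mouse and frog, changed in 4 of the 5 comparisons. It rose by 0.47 (adjusted p = 0.0173) with nicotine at day 5, was at -0.15 with nicotine at day 7, and the nicotine effect at day 7 minus that at day 5 was -0.62 (adjusted p = 0.0237) in the authors' deposited tables. Between days it rose by 0.32 (adjusted p = 0.0244) in vehicle embryos and fell by 0.30 (adjusted p = 0.0346) in nicotine embryos in the authors' deposited tables. These comparisons share libraries, and RFX2 has no row in the matrix. Of 17 regulators of multiciliation listed, 1 rose and 7 fell in vehicle and 1 rose and 8 fell in nicotine embryos over time in the authors' deposited tables. The shares lower were 41.2% and 47.1%, against 18.7% and 15.3% of all identifiers and 27.4% and 20.6% of those with a symbol. Among those that fell were GMNN, a DNA replication licensing inhibitor, at -1.27 and -0.97 and PLK4, the centriole duplication kinase, at -0.68 and -0.51. Such genes also serve dividing cells, and all 18 proliferation genes fell in vehicle and 17 of 18 in nicotine embryos. The part of proliferation in these shares was not tested. GMNC and CCNO, the 2 of the list with a row in the matrix, summed to at most 2.26 CPM in any library.

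Transport motors and partners outside the rule gave 2 higher and 10 lower of 22 in vehicle and 2 higher and 6 lower in nicotine embryos over time in the authors' deposited tables. In total 54.5% and 36.4% were called, against 47.7% and 40.7% of identifiers with a symbol, so the nicotine total was near the background. The shares lower were 45.5% and 27.3%, above the 27.4% and 20.6% of identifiers with a symbol. The share higher was 9.09% in each, below the 20.2% of identifiers with a symbol. CLUAP1, an IFT-B protein, fell by 0.65 and 0.76, and KIF3C, a kinesin-2 motor subunit, rose by 1.16 and 0.91 in the authors' deposited tables. None of the 22 passed between nicotine and vehicle at either day in the authors' deposited tables. Of 17 genes listed with the transition zone, 16 have an adjusted p with nicotine at day 5, and 1 passed (6.25%, against 2.72% of all identifiers). It was FBF1, a distal appendage protein and not one of the transition zone itself, which rose by 0.32 (adjusted p = 0.0356) in the authors' deposited table. Among 13 genes of ciliary Sonic hedgehog signalling, none passed between nicotine and vehicle in the authors' deposited tables. Over time 5 rose and 1 fell in vehicle and 4 rose in nicotine embryos there. In total 46.2% and 30.8% were called, against 47.7% and 40.7% of identifiers with a symbol and 36.8% and 31.1% of all identifiers. The shares higher were 38.5% and 30.8%, above the 20.2% of identifiers with a symbol in each comparison. BOC, a Sonic hedgehog co-receptor, rose by 1.19 in both vehicle and nicotine embryos in the authors' deposited tables.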

How the data were processed

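RNA from 16 libraries was sequenced in pairs; the submitters' processing notes name StringTie 1.3.3b, HISAT2 2.0.5 and Bowtie2 2.3.2, besides Trim Galore 0.4.4, FastQC 0.11.5 and, without a version, DESeq2. Strand setting, build and annotation: not given in the sources used here. Reads of overlapping or antisense genes can therefore not be separated. The authors deposited raw counts per locus for 26943 loci. They also deposited 5 tables with log2 fold changes, linear fold values, p-values and adjusted p-values for 21357 identifiers. An adjusted p listed at 1 was read as not adjusted. This left 11826 identifiers with an adjusted p for nicotine at day 5 and 12651 for the difference between days. It left 21275 for nicotine at day 7, and 20446 and 19619 over time in vehicle and nicotine embryos. Calls at day 5 and day 7 thus rest on unlike sets. Only 8685 loci of the matrix carry a gene identifier, and 0 sample columns were left unmapped.

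Members and lists were chosen with earlier results of these data known. Counts were tested with edgeR 4.0.16 (filterByExpr, TMM, 1 fit of 4 group means, quasi-likelihood test, Benjamini-Hochberg adjustment over 18394 loci, adjusted p under 0.05) under R 4.3.3; DESeq2 1.42.0 was an alternative. The edgeR script was tested on simulated data. CPM are counts scaled by the normalised library size; log2 CPM used a prior count of 2. Permutation tests used SciPy 1.17.1. Genes were named by rule: in each table up to 10 called in each direction by size and the 3 with the smallest p per class, every member tested in the matrix, CFAP52, and the 5 loci most like it; members that give only values near 0 are covered by counts. TTC34, TEKT5 and DNAH8 did not pass the filter. The edgeR p-values weigh a difference between groups against the spread among embryos within groups, estimated in 1 fit of all 4 groups. The SE given with an edgeR difference is the size of that difference divided by the square root of its F statistic. Precision is limited by the low counts of most axonemal genes.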

Additional observations from a re-analysis of the deposited data

Results flagged for a closer look

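In 2 of 52 groups of 4 libraries, 1 library stood apart from the other 3 by Dixon's test; chance flags about 1 group in 20. CEP57L1 measured 1.65 CPM in vehicle day 5 replicate 3, above 0.538 to 0.723 CPM in the other libraries of that group. CFAP65 measured 0 CPM in nicotine day 7 replicate 1, below 0.4 to 0.424 CPM in the other libraries.

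The nicotine effect differed between days, by the interaction in the authors' deposited tables, for TTC37 (0.53, adjusted p = 0.0314) and for RFX2 (-0.62, adjusted p = 0.0237), day 7 minus day 5. TTC37 was 1 of 69 members with an adjusted p (1.45%), below the 2.25% of all identifiers and 2.35% of those with a symbol. RFX2 was 1 of 13 such multiciliation regulators (7.69%). Neither gene has a row in the matrix, and neither passed at an adjusted p under 0.01.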

How the results depend on the processing

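Among the counts of members called, 1 under edgeR from day 5 to day 7 in vehicle became 0 with no filter on low counts, 0 with only the compared libraries, 0 with the replicate block, and 2 with DESeq2, with a covariate for the 4 libraries that lack 57 loci, or with DESeq2 and that covariate (chosen after seeing the data); leaving out single libraries gave 0 to 2. In nicotine embryos 1 became 2 with the replicate block, 2 with the covariate and 2 with DESeq2 and the covariate, and 0 to 3 when libraries were left out. At day 7, 0 became 1 with DESeq2 and the covariate. Same-numbered libraries did not deviate together in every pair (correlations from -0.24 to 0.36), and the labels do not say what a shared number means. The highest values, 0.36 over time in vehicle and 0.34 between nicotine and vehicle at day 7, were for replicate 2, whose libraries in these groups lack the 57 loci. In the authors' deposited tables, an adjusted p under 0.01 left 0 of 3 at day 5, 0 of 1 at day 7 and 0 of 1 for the difference; without TTC and CEP symbols of no ciliary class, 3 became 1, 32 became 13, 24 became 12 and 1 became 0. The axonemal median of the difference, -0.28, was 0.0019 over identifiers with an adjusted p. That median changed sign, as did the uncalled CFAP52 difference at day 5, from 0.168 to -0.044 without vehicle day 5 replicate 3 (-0.044 to 0.559 over the libraries left out). No called value changed sign; the causes were not tested. The share of promoters with an X-box motif was not run, as no sequences were used here. Low counts limit what the matrix can show of axonemal genes.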
